A study of Mus musculus with 4 samples.

Results

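Accessible regions that lie in exons but away from promoters were examined in primary osteoblasts, the bone-forming cells, by ATAC-seq. This assay inserts sequencing adapters into open DNA with a transposase, and the reads that fall in a region measure how accessible it is. A region was taken when its midpoint fell in an exon of a protein-coding gene of the GENCODE M21 annotation (GRCm38) and was over 1 kb from every protein-coding transcript start. These exonic regions numbered 8815 of 255864 (3.45%), in 6186 of the 21951 protein-coding genes. By the exon of the chosen transcript, 614 lay in first exons, 2590 in internal exons, 5035 in last exons and 576 in genes or transcripts with a single exon. By what the exon encodes, 3158 lay in coding sequence, 3295 in 3′UTRs, 117 in 5′UTRs and 2245 in exons of noncoding transcripts of these genes, 1629 of them retained-intron transcripts, whose exon can be an intron of the coding transcript.

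The cells came from 3-day-old C57BL/6 mice, either WT or TCKO. TCKO mice carried Prx1-Cre with Tet1fl/fl, Tet2fl/fl and Tet3fl/fl alleles, and the study isolated the osteoblasts from calvarial bone. Prx1-Cre is active in limb and part of the skull mesenchyme, so cells of other origin keep intact Tet genes, and whether the WT mice carried floxed alleles or Cre was not given in the sources used here. The labels list 2 samples per genotype while a protocol text speaks of 3 repeats, and the count table held 1 merged column per genotype. The spread between replicates is therefore unknown, genotypes were not tested, each difference below compares 2 merged libraries, and intervals cover counting error only.

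Exons are marked by a higher GC content than the introns around them, and coding exons keep CpG dinucleotides in the genome that introns have largely lost, because the protein sequence holds them. Most CpG outside promoters is methylated in differentiated cells, and gene bodies in particular carry methylation that follows transcription. TET dioxygenases oxidise 5-methylcytosine at CpG as the first step of its removal. Enhancers can lie within exons, where the same bases serve the protein and the transcription factor, and AP-1, a dimer of Fos and Jun proteins of the bZIP class, is a frequent binder of such distal elements in mesenchymal cells.

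Windows of 200 bp around the midpoint of coding exonic regions show the sequence that was scored. The first set gives a CpG-rich exon with high counts in both genotypes (Angptl6), the internal-exon region with the most WT counts (Syne1) and a coding region among the 5 with the lowest TCKO counts relative to WT (Cd40lg). Capitals mark each CpG, and each window is printed 5′ to 3′ on the strand of the gene. The windows lay at chr10:5289280-5289479 in exon 55 of 146 of Syne1 (minus strand), chr9:20878224-20878423 in exon 2 of 6 of Angptl6 (minus strand) and chrX:57223335-57223534 in exon 5 of 5 of Cd40lg (plus strand), GRCm38.
Syne1: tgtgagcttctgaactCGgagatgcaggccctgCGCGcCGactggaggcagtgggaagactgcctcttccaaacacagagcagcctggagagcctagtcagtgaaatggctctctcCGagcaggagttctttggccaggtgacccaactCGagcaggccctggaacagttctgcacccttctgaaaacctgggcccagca
Angptl6: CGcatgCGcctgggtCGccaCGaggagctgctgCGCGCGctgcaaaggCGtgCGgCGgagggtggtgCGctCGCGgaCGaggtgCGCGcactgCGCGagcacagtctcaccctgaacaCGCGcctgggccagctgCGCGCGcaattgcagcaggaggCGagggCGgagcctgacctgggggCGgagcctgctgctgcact
Cd40lg: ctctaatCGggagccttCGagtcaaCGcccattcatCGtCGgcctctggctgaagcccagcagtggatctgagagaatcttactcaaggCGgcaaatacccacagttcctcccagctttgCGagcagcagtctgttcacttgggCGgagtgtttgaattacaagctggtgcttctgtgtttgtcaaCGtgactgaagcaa
The windows held 6, 26 and 9 CpG, and each lay wholly within its exon.

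The second set shows where the heptamer TGANTCA, which includes the AP-1 sites TGACTCA and TGAGTCA, sat relative to exon boundaries, and here capitals mark each match. The windows lay at chr9:67229263-67229462 at exon 54 of 58 of Tln2, chr6:129380587-129380786 at exon 3 of 6 of Clec12b and chr15:102358892-102359091 in exon 2 of 2 of Sp7, all on the minus strand.
Tln2: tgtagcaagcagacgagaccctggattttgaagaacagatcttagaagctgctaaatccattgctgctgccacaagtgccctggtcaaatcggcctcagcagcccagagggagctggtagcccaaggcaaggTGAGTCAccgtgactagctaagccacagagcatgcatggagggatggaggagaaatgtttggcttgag
Clec12b: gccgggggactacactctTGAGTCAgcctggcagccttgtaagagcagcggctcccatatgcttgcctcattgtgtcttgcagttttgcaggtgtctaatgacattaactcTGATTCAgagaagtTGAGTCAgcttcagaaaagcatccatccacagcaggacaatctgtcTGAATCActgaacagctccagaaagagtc
Sp7: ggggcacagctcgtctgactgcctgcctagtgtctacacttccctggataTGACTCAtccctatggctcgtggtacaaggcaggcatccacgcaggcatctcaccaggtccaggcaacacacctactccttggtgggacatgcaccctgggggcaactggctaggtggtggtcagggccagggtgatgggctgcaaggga
In Tln2, exon bases ran from position 6 to 131 of the window and the match began at position 133, which is 2 bases past the exon end, so that the heptamer overlapped the splice donor. In Clec12b the exon began at position 84, and 3 of 4 matches, at positions 112, 126 and 172, were in coding sequence. The Sp7 match at position 51 was within the coding part of the last exon.

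Total counts over all regions were 56898657 in WT and 34608167 in TCKO, of which exonic regions took 3.00% and 3.01%. TCKO counts were scaled by the ratio of the totals, 1.64, before any log2 ratio of TCKO over WT was taken. Of 16 osteoblast marker genes, 14 had a region within 1 kb of their start, with a median of 296 WT counts per gene. The same median was 18 for 10 macrophage or osteoclast markers (5 with a region) and 0 for 6 skeletal muscle markers, of which 1 had a region. It was 185 for 7 endothelial, 245.5 for 8 chondrocyte and 117 for 5 adipocyte markers. Summed over each list, osteoblast starts held 8254 WT and 7267 scaled TCKO counts, macrophage starts 549 and 682, muscle starts 226 and 350, endothelial starts 1667 and 1749, chondrocyte starts 2230 and 2086 and adipocyte starts 3652 and 3005. The part of cell composition in the ratios was not tested, and fewer cells of a type cannot be told apart from less open chromatin per cell.

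As 1 class, exonic regions were about as dense along exons as intronic regions along introns. There were 110 exonic regions per Mb of exon sequence outside promoters, against 115 per Mb of intron, 71.3 per Mb of intergenic sequence and 353 per Mb of promoter. With 1 transcript per gene, internal exons held 99.5 regions per Mb and last exons 110, and coding sequence held 108 and 3′UTRs 104. First exons over 1 kb from any coding start made up 0.321 Mb and held 71 regions, or 221 per Mb, a higher density than in internal or last exons.

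**Figure D1:**
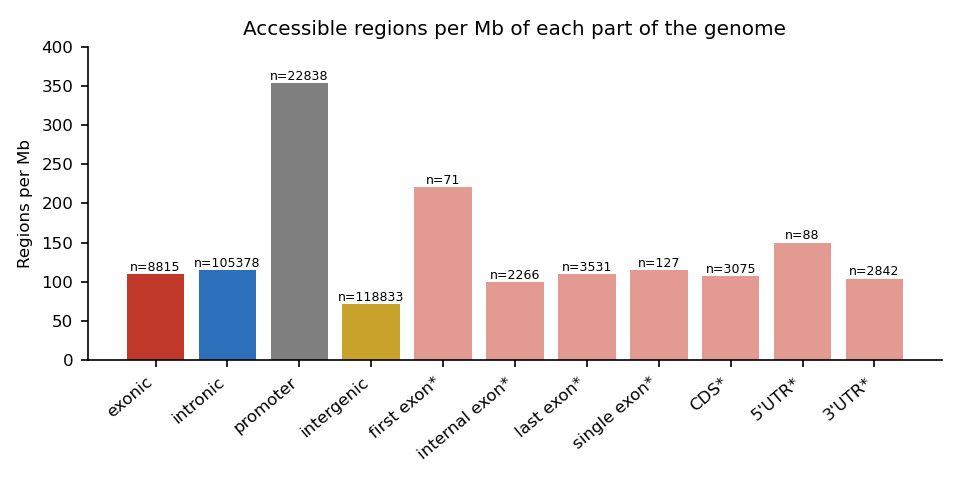
Accessible regions per Mb of sequence. The bars give the whole categories (exonic, intronic and intergenic outside promoters) and, marked with an asterisk, parts of 1 protein-coding transcript per gene outside promoters, with the number of regions above each. Exonic and intronic densities, 110 and 115, lie well below the 353 of promoters.

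Most of the genes, 4397, had a single exonic region, 1789 had 2 or more and 65 had 5 or more. Exons of 2 or more genes shared 110 exonic regions, whose gene name is therefore uncertain. The median internal-exon region had 72.3% of its bases in exon sequence, and 25.4% of internal-exon regions lay wholly within the exon, against 84.5% of last-exon regions. The first-exon label mostly came from noncoding transcripts, which gave 535 of the 614. Of the first-exon regions, 521 were within 1 kb of the start of a noncoding transcript, as were 1598 of all exonic regions. Midpoints were spread fairly evenly along internal and last exons, and less so along first exons. With exons cut into 5 equal parts, each part held between 17.7% and 21.5% of the regions in internal exons and, in last exons, between 17.0% and 22.1%. In first exons the share was 25.4% in the part nearest the 5′ end and 13.8% in the part nearest the 3′ end.

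Counts in exonic regions ran from 1 to 5915 in WT and from 2 to 5045 in TCKO, with medians of 95 and 63. Per kb of region, the median exonic region held 408 WT counts, above the 362 of intronic and below the 765 of promoter regions. In the peak lists, 54.9% of exonic regions were called in both genotypes, 35.8% in WT alone and 9.37% in TCKO alone. The intronic shares were 54.3%, 35.5% and 10.2%, and the promoter shares 79.0%, 17.3% and 3.68%. The summit fold over local background, a ratio made within each library, was taken over regions with a summit called in that genotype. For exonic regions its median was 4.39 in WT (7989 regions) and 4.42 in TCKO (5663 regions). It was 4.42 and 4.47 for intronic and 6.17 and 6.01 for promoter regions. The sets differ between genotypes and each had passed the caller's threshold, so these medians do not compare the same regions.

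The log2 ratio of the median exonic region was 0.051 (quartiles −0.30 and 0.46), near the 0.064 of all regions. It was 0.072 for intronic, 0.12 for intergenic and −0.070 for promoter regions. A fall of at least 2-fold in TCKO was seen in 398 exonic regions (4.52%), where the share over all regions was 4.51%, and a rise in 883 (10.02%), where it was 12.3%. The lower share was therefore at the background. With the whole counting interval past 2-fold, 77 exonic regions (0.874%) were lower, against 0.654% of all regions, and 291 (3.30%) were higher, against 3.82%. Intronic regions had 5.22% lower and 12.2% higher, and promoters 1.27% and 2.72%.

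Which direction prevailed depended on the scaling. Of the exonic regions past 2-fold, 31.1% were lower with the total-count scaling, 42.2% after a trend with count was removed, 85.6% with the background of the peak caller and 90.6% with no scaling. The median of all regions moved from 0.064 to −0.54 with the caller's background and to −0.64 with no scaling. The exonic medians with these were −0.55 and −0.66. A common factor moves exonic and other regions alike, so the ratios below are read against those of other regions.

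**Figure D2:**
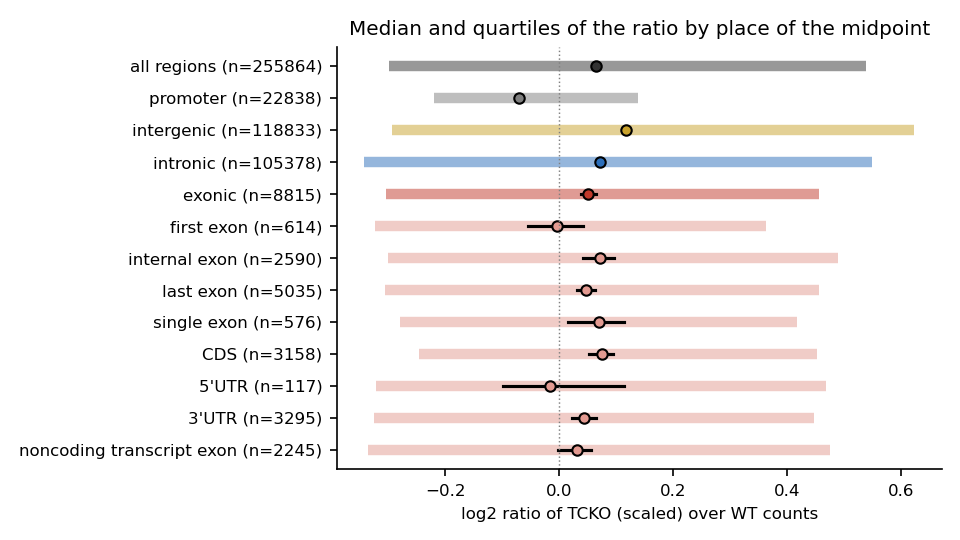
Log2 ratio of scaled TCKO over WT counts by where the region midpoint lies. Circles are medians, black lines their 95% order-statistic intervals over regions and coloured bars the quartiles. Medians of the exonic classes lie between −0.016 and 0.076, and the quartiles overlap throughout.

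Exon place made little difference. The median ratio was 0.071 in internal exons, 0.047 in last exons, −0.0031 in first exons and 0.071 in single exons, with lower shares between 3.75% and 4.71%. Higher shares were 10.4% in internal, 10.3% in last and 7.17% in first exons. Coding sequence had a median of 0.076, 3′UTRs 0.044 and noncoding exons 0.031. Long internal exons of over 1000 bp (341 regions) had 7.04% lower, against 4.03% in those of up to 150 bp (918 regions), with medians of 0.086 and 0.072. By distance to the nearest coding start, the lower share was 2.22% at 1 to 2 kb and 5.87% at 20 to 100 kb, and the higher share 5.43% and 11.9%. Median WT counts over the same distances were 137.5 and 82, and the part of depth in these shares was not tested. In intronic regions at those distances the lower shares were 2.88% and 5.72%. At the edge of the rule, 474 regions at 1000 to 1500 bp from a start had medians of 139.5 WT and 90.5 TCKO counts and a ratio of 0.044, and 958 exon regions just outside it, at 500 to 1000 bp, had 162.5, 104 and 0.049.

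The ratios varied with the number of CpG, and did so less in exonic than in intronic regions. At 0 CpG in the central 200 bp, the median ratio was 0.22 in 768 exonic and 0.25 in 17243 intronic regions. At 1 to 2 CpG the medians were 0.10 and 0.13, and at 3 to 5 CpG they were 0.017 and −0.032. At 6 to 9 CpG the median was −0.044 in 1267 exonic and −0.16 in 6536 intronic regions, and at 10 or more it was 0.040 in 952 exonic and −0.020 in 1018 intronic regions. Exonic medians thus lay above the intronic ones from 3 CpG on.

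The shares past 2-fold followed the medians. At 6 to 9 CpG, 7.02% of exonic (95% interval 5.74 to 8.57) and 10.3% of intronic regions (9.54 to 11.0) were lower in TCKO. Intergenic regions had 7.19% lower in that bin, with a median of −0.11, so the exonic lower share was near the intergenic one. Their lower share was 2.35% at 10 or more CpG. With 10 or more CpG, 12 of 952 exonic regions (1.26%, 0.723 to 2.19) and 49 of 1018 intronic regions (4.81%, 3.66 to 6.31) were lower, whereas 3.26% and 1.38% were higher. These Wilson intervals treat regions as separate counts from 2 merged libraries, and no test of the difference was made. Split into 5 equal classes of summed counts, the exonic median was above the intronic one in 5 of 5 classes at 6 to 9 CpG, by 0.071 to 0.18, and in 5 of 5 at 10 or more, by 0.013 to 0.32. At 3 to 5 CpG it was above in 4 of 5, at 1 to 2 CpG in 1 of 5 and at 0 CpG in 3 of 5, so the order at 0 CpG was not the same across count classes. The exonic minus intronic difference at 6 to 9 CpG was 0.11, and it was 0.13 with exons of protein-coding transcripts only, 0.13 over 1 kb from every annotated start and 0.13 after removal of a GC trend.

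Most CpG-dense exonic regions were coding. Of the 952 exonic regions with 10 or more CpG, 711 were coding, and 452 of the 952 lay over 5 kb from a coding start. At 6 to 9 CpG the median was 0.011 in 713 coding regions, −0.098 in 329 3′UTR regions and −0.099 in 211 regions of noncoding exons. Lower shares in that bin were 6.17%, 9.12% and 7.11%. Internal exons at 6 to 9 CpG had a median of 0.014 and last exons −0.069. With the peak caller's background in place of the total count, 26.0% of exonic and 33.7% of intronic regions at 6 to 9 CpG were lower, and 9.24% and 16.5% at 10 or more, so the order held while the level rose.

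**Figure D3:**
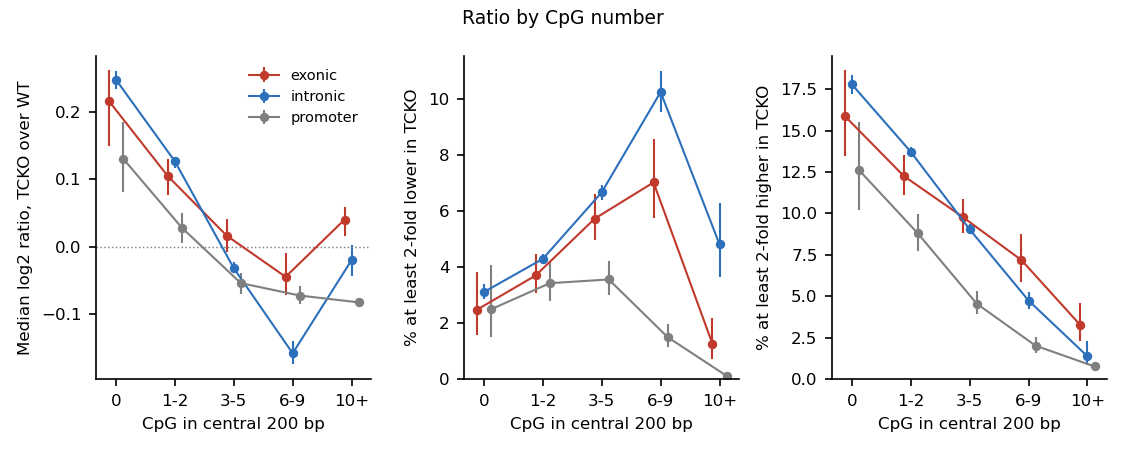
Ratio by the number of CpG in the central 200 bp for exonic, intronic and promoter regions. Panels give the median log2 ratio, the percent at least 2-fold lower and the percent at least 2-fold higher in TCKO, with 95% intervals over regions. Exonic and intronic medians cross between 1 to 2 and 3 to 5 CpG and lie furthest apart at 6 to 9, at −0.044 and −0.16.

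Among 4 consensus sequences searched on both strands of the central 200 bp, the bZIP heptamer TGANTCA went with the largest difference in ratio. It was present in 1687 exonic regions (19.1%), below the 24.4% of intronic and 26.4% of intergenic regions and the 23.6% of all regions, and above the 7.22% of promoters. Coding regions had it in 15.3% and 3′UTR regions in 20.4%. Exonic regions with the heptamer had a median ratio of 0.38, and those without it −0.0028. Of those with it 20.2% were at least 2-fold higher and 1.48% lower in TCKO, and of those without it 7.60% and 5.23%. Over all regions with the heptamer 22.2% were higher and 1.53% lower, and the medians were 0.42 with it and −0.019 without. The difference was therefore not particular to exonic regions. With no scaling both exonic medians were negative, −0.33 and −0.71, in the same order. The difference was seen in each exon place, with medians with the heptamer of 0.36 in first, 0.36 in internal, 0.37 in last and 0.47 in single exons. It narrowed with CpG number. The medians with and without the heptamer were 0.52 and 0.097 at 0 CpG, and 0.13 and −0.062 at 6 to 9 CpG.

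In internal exons the heptamer can coincide with a splice donor, which often reads GTGAGT. Of 456 internal-exon regions with a match, 49 (10.7%) had it at the donor, starting at the second intron base as in Tln2. A match within the exon was present in 312, and 108 had one elsewhere in the window, some with more than 1 of these. Elsewhere means not at the donor and not wholly within the exon, which is mostly flanking intron but can include a match across an exon boundary. The median ratio was 0.25 with the donor match, 0.34 with a match within the exon and 0.54 with a match elsewhere, against 0.022 in the 2134 internal regions without any. A match is a description of the letters and does not show binding.

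**Figure D4:**
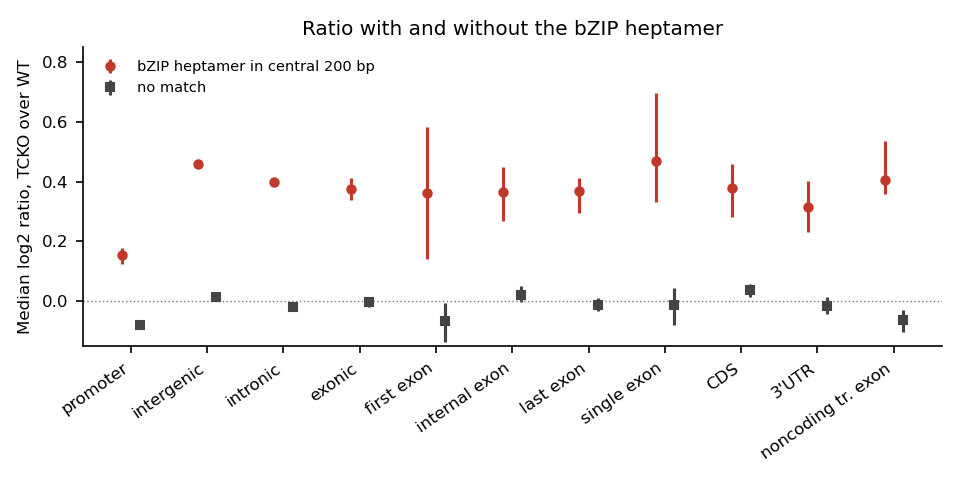
Median log2 ratio of regions with (circles) and without (squares) the bZIP heptamer in the central 200 bp, with 95% order-statistic intervals over regions. In every class shown the median with the heptamer is above that without it, at 0.38 and −0.0028 for exonic regions.

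The other sequences made less difference. The Runt consensus TGTGGT, read by RUNX2, the transcription factor that specifies osteoblasts, was present in 20.9% of exonic and 22.2% of all regions, and exonic medians were 0.062 with it and 0.047 without. The TEAD consensus GGAATG was present in 15.03% of exonic and 16.3% of all regions, with medians of 0.057 and 0.049. The CTCF core CCACNAGGG, read by the insulator protein CTCF, was present in 227 exonic regions (2.58%) against 1.66% of all and 1.61% of intronic regions. Of these 227, 8 were at least 2-fold higher (3.52%) and 5 lower (2.20%) in TCKO, against 6.80% and 3.01% of all regions with the core.

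The 5 regions with most WT counts in each exon place differed by less than 2-fold between genotypes after scaling to the total count. The region with most WT counts of all lay in a single exon of Rap2b, a small GTPase gene of the Ras family, and held 5915 WT and 3234 TCKO counts (5317 scaled, log2 ratio −0.15, interval −0.22 to −0.092). It was shared with an exon of another gene, and its ratio turned to 0.093 once a trend with count was removed. The other single-exon regions among the top 5, in Hist1h1d, Btbd19, Leng9 and Dpf1, had ratios from −0.70 in Dpf1 to −0.055 in Btbd19. Single exons were added after their values were seen. In last exons, the region of Lars2, which encodes the mitochondrial leucyl-tRNA synthetase, held 5515 WT and 5045 TCKO counts in 383 bp (8294 scaled, log2 ratio 0.59, interval 0.53 to 0.64). This ratio turned negative with the caller's background (−0.020) and with no scaling (−0.13). Of its 359 25-mers, 68.2% had an exact copy elsewhere in the chromosomes, so its counts are uncertain, whereas the other 25 named regions checked in this way were each under 10%. Ephb2, an ephrin receptor gene, held 3554 and 1878 counts in its 3′UTR, Ankrd11, a chromatin regulator gene, 3514 and 1789, and Cyb5r3, which encodes a cytochrome b5 reductase, 3409 and 2008. Ccdc97 held 3638 and 1949. These 4 ratios lay between −0.26 and −0.046, and those of Ccdc97 and Cyb5r3 turned positive once a trend with count was removed.

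In internal exons the region with most counts lay in exon 55 of Syne1, which encodes nesprin-1, a giant protein linking the nucleus to the cytoskeleton. It held 2889 WT and 1279 TCKO counts (2103 scaled), a ratio of −0.46 (−0.55 to −0.36), at 94673 bp from the nearest coding start. Dusp8, a phosphatase gene of the MAP kinase pathway, held 2382 and 1107 counts (−0.39, −0.49 to −0.29). Tln2, which encodes talin 2, a link between integrins and actin, held 2359 and 1149 (−0.32, −0.42 to −0.22). After scaling, WT was the higher genotype in each of these, by less than 2-fold. The CpG-dense regions of Prdm2, which encodes a zinc finger protein of the PR domain family, and Angptl6, a secreted angiopoietin-like factor, held 2223 and 1154 and 2865 and 1631 counts. Their ratios were −0.23 and −0.095, with 25 and 26 CpG, and the Angptl6 ratio turned to 0.090 once the trend with count was removed.

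Among first exons, the top region lay in Tmbim1, at 5210 WT and 2914 TCKO counts (ratio −0.12), 93 bp from the start of another transcript and 4560 bp from a protein-coding one. Vgll4, a cofactor of TEAD factors, held 2357 and 1108 counts (−0.37) at 50 bp from the nearest annotated start, and Junb, a subunit of AP-1, held 2193 and 1075 (−0.31) at 61 bp. Tmem204 held 2798 and 1639 (−0.054) and Fmc1, which encodes a mitochondrial assembly factor, 2478 and 1292 (−0.22). All 5 lay within 170 bp of an annotated start that is not of a protein-coding transcript, and the ratios of Tmbim1 and Tmem204 turned positive once the trend with count was removed.

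Of 2686 exonic regions that reached 200 scaled counts in either genotype, 101 were at least 2-fold lower (3.76%) and 138 higher (5.14%), against 3.46% and 5.59% of all 78308 regions at that limit. The lowest ratio among these was in Cry2, a repressor of the circadian clock, where a noncoding last exon held 560 WT and 76 TCKO counts (125 scaled, ratio −2.16, −2.51 to −1.82). Tmem246 held 899 and 166 counts (273 scaled, −1.72, −1.96 to −1.48) in a 3′UTR. Selenoi, which encodes an ethanolamine phosphotransferase, had 260 and 46 raw counts (−1.77), and Ext2, a polymerase of heparan sulfate, 239 and 44 (−1.71). The coding region of Cd40lg, a ligand made by activated T cells, had 249 and 46 (−1.71, −2.17 to −1.27). Its window holds 9 CpG, as printed above, the most of these 5 regions. Those of Cry2, Tmem246, Selenoi and Ext2 hold 3, 1, 4 and 7. Cry2, Ext2 and Cd40lg were not called as peaks in TCKO.

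The highest ratio was in Dcp1a, which encodes an activator of mRNA decapping, where a noncoding last exon held 20 WT and 123 TCKO counts (202 scaled, ratio 3.27, 2.66 to 4.01). It lay 430 bp from an annotated start, and neither it nor the Chchd5 region was called as a peak in WT. Clec12b, which encodes an inhibitory C-type lectin receptor of myeloid cells, held 31 and 139 counts (229 scaled, 2.84, 2.32 to 3.44) around its exon 3, the window with 4 bZIP heptamers. Chchd5 (78 and 236, ratio 2.30), Ccnt2, which encodes cyclin T2 of the transcription elongation factor P-TEFb (57 and 171, 2.28), and Xxylt1, a xylosyltransferase gene (89 and 258, 2.24), made up the other 3. These 5 lowest and 5 highest ratios stayed past 2-fold in the same direction under all 7 scalings tried. They had been chosen as the most extreme ratios, and the scaling factors ran only from 1.0 to 1.64. This outcome was therefore largely fixed in advance. The bZIP heptamer was in the window of 3 of the 5 regions higher in TCKO and of 0 of the 5 lower ones. These regions were picked by their ratios and are too few to set against the 19.1% of all exonic regions with it.

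**Figure D5:**
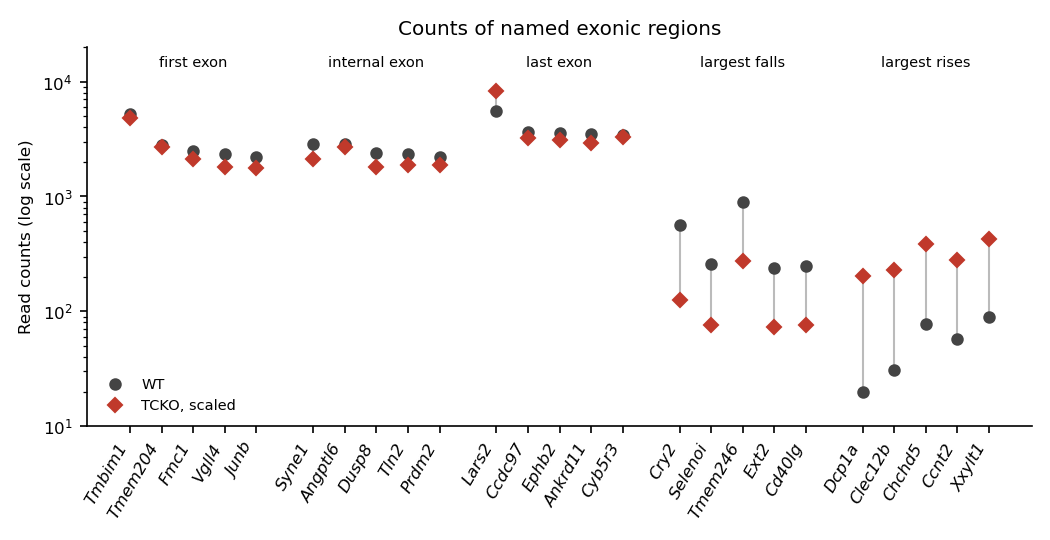
Read counts of the named exonic regions in WT (circles) and TCKO scaled to the WT total (diamonds), on a log axis, 1 merged library per genotype. The genotypes lie within 2-fold of each other in the regions with most counts, while the lowest and highest ratios (headed largest falls and largest rises) differ by over 2-fold, from 560 to 125 in Cry2 and from 20 to 202 in Dcp1a.

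Several genes held many exonic regions, and their ratios spread to both sides of 0. Syne1 had 10, 7 of them coding, with ratios from −1.08 to 2.11 and 6 below 0. Its coding region in exon 77 at chr10:5227493-5227859 had 109 WT and 31 TCKO counts (−1.08), while the neighbouring region of the same exon, at chr10:5228798-5229252, had 202 and 207 (0.75). Counts of 34 and 69 (1.71) and of 51 and 72 (1.20) came from the first exon of a noncoding transcript of Syne1. Trio, a guanine nucleotide exchange factor gene, had 8 regions with ratios from −1.10 to 0.11, of which 6 were below 0. Fras1, which encodes an extracellular matrix protein of the basement membrane, had 8 with a median of 0.53 and 2 below 0, and its exon 29 held 9 WT and 28 TCKO counts. Creb5, itself a bZIP factor gene, had 8 with ratios from −0.98 to 0.70. Dnm3, a dynamin gene and 1 of 6 genes with 7 regions, had 1 region below 0 and a median of 0.69.

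Across 4810 genes with both kinds of region, the median exonic minus intronic difference of the ratio was −0.051 (quartiles −0.46 and 0.40), and the exonic median was the lower one in 2576 genes (53.6%). Spearman's rho between the exonic and intronic ratios of a gene was 0.11, across genes, which share the 2 libraries and are not replicates.

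Of 15 genes the study knocked out or named, 3 had an exonic region, and no region of these reached 2-fold. Tet1 had 3. In its 3′UTR they held 190 and 131 counts (ratio 0.18, −0.14 to 0.50) and 197 and 95 (−0.33, −0.69 to 0.02), and in coding exon 4 of 13 it held 81 and 61 (0.30, −0.17 to 0.79). Which exons the floxed alleles remove was not given in the sources used here, and accessibility of an exon does not check the knockout. The Tet3 region, in a single-exon noncoding transcript, had 284 and 162 counts (−0.092, −0.37 to 0.19). Sp7, the osteoblast factor osterix, had 188 and 126 (0.14, −0.18 to 0.46) in the coding part of its last exon. All 5 intervals include 0, and the sign of 3 of the 5 ratios turned with no scaling.

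Of 26 matrix genes 14 had 30 exonic regions, with a median of 0.023, 2 lower and 0 higher. The 44 collagen genes had 42 regions in 25 genes, with a median of 0.059, 4 lower (9.52%) and 2 higher (4.76%), against 4.51% and 12.3% of all regions in those directions. Of exonic regions 4.52% were lower and 10.02% higher. The matrix and collagen lists are too small to set against these shares. Chosen after the values were seen, the 3′UTR region of Col15a1, a basement membrane collagen, held 552 WT and 124 TCKO counts (−1.43, −1.72 to −1.16), and that of Col14a1 105 and 26 (−1.28). The region of Col4a4 held 23 and 48 (1.74). Fbn1, which encodes the microfibril protein fibrillin-1, had a coding region at 186 and 165 (0.54) and another at 86 and 29 (−0.84), so that regions of the same gene differed in sign. With no scaling 11 collagen regions were lower (26.2%) and 1 was higher (2.38%), when 65511 and 8113 of all 255864 regions were.

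Among transcription factor genes, the 39 Hox genes, which pattern the body axis, had 11 regions in 10 genes, 7 of them coding. Their median ratio was 0.36, with 4 below 0, 0 lower and 1 higher, Hoxb13 at 21 and 52 counts (1.98, 1.30 to 2.75), and the median was −0.25 with the caller's background and −0.36 with no scaling. Hoxb2 and Hoxa10, which had the next highest ratios of this list, held 100 and 103 (0.75) and 50 and 58 counts (0.92). The lowest ratio was in the 3′UTR of Hoxc9, at 47 and 22 (−0.37, −1.10 to 0.34). A list of 24 transcription factor genes, among them bHLH, homeobox and T-box genes, had 17 regions, 0 lower and 2 higher. The higher ones were Tbx4, a T-box factor of the hindlimb, at 52 and 98 (1.61) and Lhx9 at 52 and 66 (1.05). The Lhx9 region was under 2-fold in the alternative scalings, which left 1 or 0 higher regions in this list. The 391 zinc finger genes had 135 regions in 91 genes, 9 lower (6.67%) and 22 higher (16.3%), with a median of 0.047. Over all regions 4.51% were lower and 12.3% higher, and over exonic regions 4.52% and 10.02%. The Hox list and the list of 24 genes are too small to set against these shares, and no test was made for the zinc finger list.

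Chosen after their values were seen, coding last-exon regions of Zfp53 held 10 and 42 counts (2.67, 1.81 to 3.76), of Zfp839 34 and 116 (2.45, 1.94 to 3.04) and of Zfp51 23 and 50 (1.79) and 41 and 68 (1.43). Zfp51 and Zfp53 are paralogs of a gene cluster on chromosome 17. Only uniquely mapping reads were kept, so reads that match both would be missing from their counts. Copies of these regions elsewhere were not checked, so their counts are uncertain. The lowest ratio was in an internal coding exon of Zfp462, at 473 and 88 counts (−1.70, −2.04 to −1.38), and Zfp451 held 489 and 138 (−1.10) in an internal coding exon. With no scaling 31 of the 135 zinc finger regions were lower (23.0%) and 8 higher (5.93%), when 65511 and 8113 of all 255864 regions were.

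Exonic regions of genes that mark cell types were few. Osteoblast markers had 3, macrophage or osteoclast markers 5, muscle markers 3, adipocyte markers 3 and endothelial markers 0, with 0 past 2-fold. Under each of the 6 alternative scalings 1 adipocyte region was lower, with no scaling 1 macrophage region, and with no scaling or the caller's background 1 osteoblast region. The mineralisation genes Dmp1 and Phex held 112 and 50 (−0.44, −0.92 to 0.03) and 30 and 21 counts (0.20). Spi1, the master factor of the myeloid lineage, held 676 and 387 in its CpG-dense last exon (−0.087), and Ocstamp, a fusion gene of osteoclasts, 802 and 373 (−0.39, −0.56 to −0.21). Pparg, the adipocyte factor, held 75 and 77 in coding exon 2 (0.75, 0.30 to 1.21) and 197 and 61 in exon 5 (−0.97, −1.39 to −0.56). Chondrocyte markers had 11 in 4 genes, most of them in Sox5 and Sox6, with 2 lower (18.2%) and 1 higher (9.09%). All regions had 4.51% and 12.3%, and 11 regions are too few to set against these shares. The higher call was lost with the trend in count or GC removed, with the caller's background (3 lower) and with no scaling (4 lower). The 2 lower ones included the first exon of a noncoding transcript of Sox5, a cartilage factor, at 501 and 123 (−1.30, −1.59 to −1.02), while its coding exon 2 held 120 and 140 (0.93, 0.59 to 1.29). The other lower one, in the 3′UTR of Sox6, held 75 and 18 (−1.31, −2.08 to −0.61).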

How the data were processed

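ATAC-seq reads were aligned by the authors to GRCm38 with STAR 2.7.0e, keeping uniquely mapping reads, and peaks were called with MACS2. Base calling used CASAVA per the labels. The deposited table holds whole read counts per region, with replicates merged into 1 column per genotype. The deposited peak lists, 1 per genotype, give a fold over local background (a ratio) and −log10 p-values and q-values. TCKO counts were scaled here by the ratio of total counts, and the log2 ratio used a pseudocount of 1. Regions were placed by midpoint in GENCODE M21 exons, preferring protein-coding transcripts. The peak caller's background depth, an alternative scaling, was solved from the fold and p-value of each summit. With 1 column per genotype, edgeR and DESeq2 gave scaling factors only, and no p-value was computed. Wilson 95% intervals cover counting error, which is too narrow where reads are PCR copies. CpG and consensus sequences were read in the central 200 bp. Named regions were the 5 with most WT counts in each of first, internal and last exons (single exons were added later), the 5 lowest and 5 highest ratios with at least 200 counts, the genes the study named and the 5 genes with most regions. Members and gene lists were chosen with earlier results of these data known. The scripts were tested on simulated data. Python 3.11.15, pandas 2.3.3, scipy 1.17.1, bedtools 2.31.1, R 4.3.3, edgeR 4.0.16 and DESeq2 1.42.0 were used.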

Additional observations from a re-analysis of the deposited data

How the results depend on the processing

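No paired analysis was possible because replicates had been merged into 1 column per genotype, and no replicate could be left out for the same reason. The 398 exonic regions at least 2-fold lower in TCKO became 2284 with no scaling, 1764 with the peak caller's background, 1169 past 1.5-fold and 77 past 3-fold. The 883 higher regions became 236, 297, 1806 and 302 under the same alternatives. Of all 255864 regions, 11552 were lower with the total count, 65511 with no scaling and 50885 with the caller's background. Higher ones numbered 31428, 8113 and 10002. These moves with the scaling were therefore not particular to exonic regions. The median ratio, 0.051, was −0.66 with no scaling, −0.024 with TMM factors, −0.014 with DESeq2 size factors, −0.55 with the caller's background, −0.035 with a trend in mean count removed and 0.013 with a GC trend removed, so its sign rests on the scaling. The exonic minus intronic difference, −0.021, was 0.026 with the GC trend removed and −0.0015 in regions under 10% soft-masked, an alternative chosen after seeing the data. At 6 or more CpG this difference, a result added after seeing the data, was 0.14 and stayed positive under all 10 alternatives run. It was 0.11 at 6 to 9 CpG and 0.060 at 10 or more, so the pooled value exceeded that of either bin. The bins were mixed unequally, with 1267 and 952 exonic against 6536 and 1018 intronic regions. The part of this mixing in the 0.14 was not tested. The last minus internal exon difference, −0.024, stayed negative under all 10. These alternatives largely reuse the same regions, and the 95% intervals of the medians overlapped, at 0.031 to 0.064 for last and 0.041 to 0.096 for internal exons. The share called in WT alone, 35.8%, was 44.9% when a peak had to cover 50% of the region. Searched over the whole region, the Runt, bZIP, TEAD and CTCF shares were 27.3%, 24.02%, 19.98% and 3.86%. Why these values moved was not tested, other than that wider windows hold more matches. The median exonic region had 95 WT and 63 TCKO counts, which limits the precision of single ratios.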
